A study of Mus musculus with 12 samples.

Results

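The genes described here are those of the caveolar and transcytotic route through brain endothelium: Mfsd2a, Plvap, the caveolins Cav1 and Cav2, and the cavins Cavin1 and Cavin2. They were taken by symbol from the count table, where each stands once, so the set is 6 of 21638 genes, and all 6 passed the filter on low counts. The 12 RNA libraries were made from adult mouse cortical endothelium, sorted as CD31+ CD41- CD45- cells, and form 4 groups of 3. The control group was labelled WT, with no further genotype given, and whether these mice received tamoxifen or carried a Cre allele was not stated. Hdac2 ECKO mice (Hdac2lox/lox:Cdh5CreERT2) are an endothelial knockout of a histone deacetylase, Ezh2 ECKO mice (Ezh2lox/lox:Cdh5CreERT2) of a Polycomb methyltransferase, and beta-catenin GOF mice (Ctnnb1lox/lox:Cdh5CreERT2) an endothelial gain of function of beta-catenin. Cdh5CreERT2 is a tamoxifen-inducible Cre driven by the VE-cadherin promoter and is active in endothelium of all organs; tamoxifen was given in 5 doses of 75 mg/kg and brains were taken after 2 months. Strain and sex were not given. Nothing in the labels says whether libraries of a group came from separate animals, so the p-values measure the spread between these libraries.

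Caveolae are flask-shaped pits of the plasma membrane that can pinch off and carry plasma cargo across a cell. Their coat is built of caveolins and cavins, and in most peripheral endothelium they are abundant. Brain endothelium keeps transcytosis low, in part through Mfsd2a, a lysophosphatidylcholine transporter whose lipid cargo makes the membrane unfavourable to caveolae. Plvap forms the diaphragms of caveolae and fenestrae and is lost from brain vessels as the barrier matures, which makes its transcript a familiar marker of barrier immaturity.

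The promoters of 3 of the genes are shown because the coat genes Cav1 and Cav2 lie side by side and were the 2 most abundant of the set, and because beta-catenin acts through TCF/LEF factors, whose core letters occur in the Mfsd2a promoter. Sequences are the 250 bases upstream of the RefSeq start (GRCm38.p6), 5′ to 3′ on the strand of the gene. RefSeq entries matched 5 of the 6 genes, all but Plvap. Capitals mark the TCF/LEF core, CTTTGA or its reverse complement TCAAAG, and the CCAAT box, CCAAT or ATTGG. These motifs share no letters in the windows printed.
Mfsd2a, chr4:122961189-122961438, minus strand: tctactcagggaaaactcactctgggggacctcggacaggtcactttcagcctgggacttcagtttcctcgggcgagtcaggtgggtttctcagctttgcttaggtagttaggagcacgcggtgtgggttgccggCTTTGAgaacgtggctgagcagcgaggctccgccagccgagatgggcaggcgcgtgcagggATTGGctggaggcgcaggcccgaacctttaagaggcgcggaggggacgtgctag
Cav2, chr6:17280935-17281184, plus strand: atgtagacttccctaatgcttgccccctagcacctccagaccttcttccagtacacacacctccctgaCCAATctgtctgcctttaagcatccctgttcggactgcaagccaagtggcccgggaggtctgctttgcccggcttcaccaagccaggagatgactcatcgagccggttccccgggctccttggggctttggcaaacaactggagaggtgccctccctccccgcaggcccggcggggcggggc
Cav1, chr6:17306085-17306334, plus strand, 1 of 2 RefSeq starts: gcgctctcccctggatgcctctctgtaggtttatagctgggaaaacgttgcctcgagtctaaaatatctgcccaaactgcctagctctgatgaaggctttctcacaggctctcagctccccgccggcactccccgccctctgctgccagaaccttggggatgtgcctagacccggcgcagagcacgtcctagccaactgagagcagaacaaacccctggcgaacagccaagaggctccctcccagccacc
In Mfsd2a, CTTTGA began 115 bases before the start and ATTGG 54 bases before it. In Cav2, CCAAT began 182 bases before the start. The Cav1 windows of both starts held neither motif. The TCF/LEF core was in 13.8% of 32851 upstream windows of the same length and in 1 of the 5 members with an entry, Mfsd2a. The CCAAT box was in 33.8% of windows and in 4 of the 5, Mfsd2a, Cav2, Cavin1 and Cavin2. A GC box, GGGCGG or CCGCCC, not capitalised here, was in 32.7% of windows and in 3 of the 5, Cav1, Cav2 and Cavin1.

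Library totals ran from 24781070 to 36109975 counts, and 13922 to 17091 genes were above 0. The gene whose alleles were floxed was examined first. Hdac2 averaged 129 ± 30.1 CPM over WT, and 96.5 ± 15.2 CPM over its own knockout (SD, n = 3 each; edgeR log2 fold change −0.42, SE 0.24, adjusted p 0.22), where CPM is the count per 1000000 counts after TMM scaling. Ezh2 was not lower in its knockout group, at 8.92 ± 3.35 CPM against 6.75 ± 3.52 CPM in WT (log2 fold change 0.40, SE 0.46, edgeR adjusted p 0.61). The level did not show the loss that the label names, and it does not decide whether the label is right. These 3 libraries are called labelled Ezh2 ECKO. Ctnnb1 was at 583 ± 109 CPM in beta-catenin GOF and 654 ± 138 CPM in WT (edgeR adjusted p 0.96), and a level of this kind does not check a gain-of-function allele. The 12 brain endothelial markers summed to between 32299 and 77132 CPM, and none was at 0 in a whole group. Summed fibroblast, neuron, astrocyte and leukocyte markers reached at most 12.3 CPM. Platelet markers reached 51.2 CPM, oligodendrocyte markers 66.6, pericyte markers 166, choroid plexus markers 182 and smooth muscle markers 447 CPM. Erythrocyte transcripts ranged from 400.4 to 61357 CPM and were highest in WT, at 36121 to 61357 CPM.

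The levels of the 6 genes in adult WT endothelium differed widely. Per kilobase of gene model, Cav2 was highest at 431 CPM per kb, rank 161 of 12577 tested genes, followed by Cav1 at 356 (rank 205) and Cavin2 at 114 (rank 669). Mfsd2a, at 35.8 CPM per kb, and Cavin1, at 35.5, stood beside each other at ranks 1609 and 1619. Plvap was lowest at 4.73 CPM per kb, rank 5250. The spread between libraries also differed by gene. Over all 12 libraries the highest CPM exceeded the lowest by 1.71-fold in Cavin1, 2.20-fold in Cavin2, 2.32-fold in Mfsd2a, 2.40-fold in Cav2, 3.96-fold in Cav1 and 290-fold in Plvap.

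**Figure D1:**
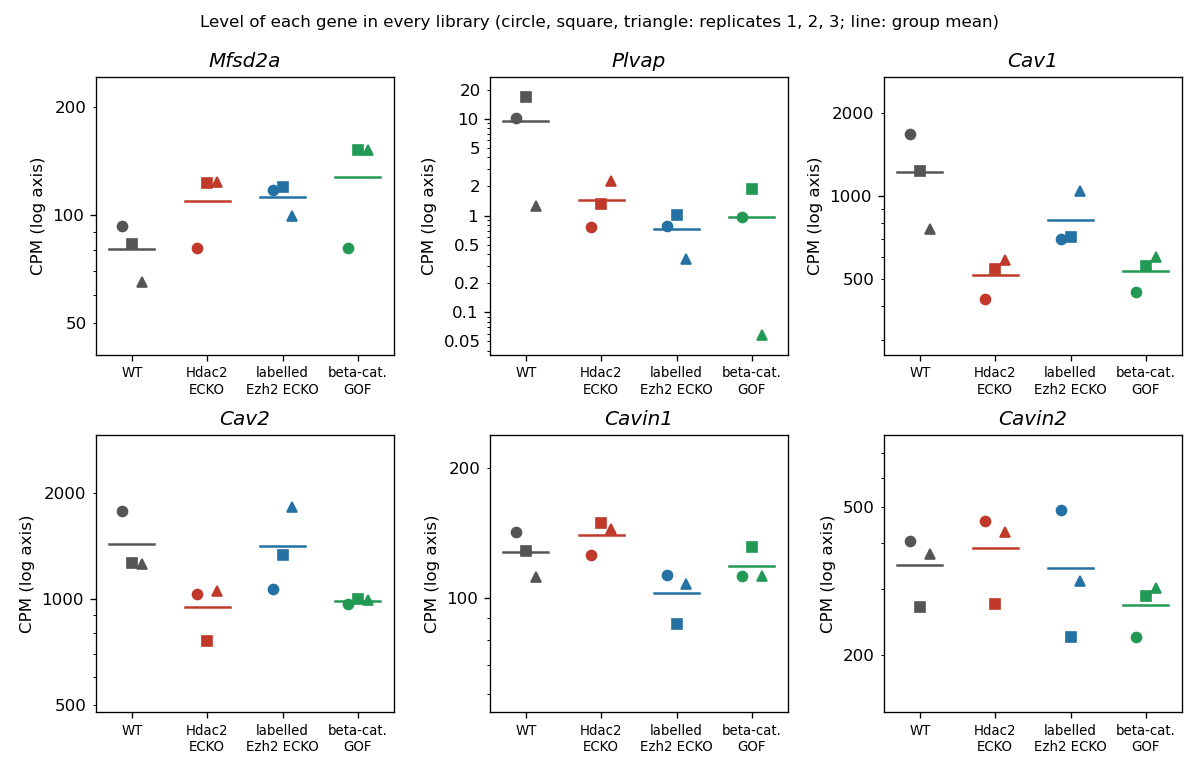
Level of each of the 6 genes in every library, in CPM on a log axis; circles, squares and triangles are replicates 1, 2 and 3 and the line is the group mean. All Cav1 values of Hdac2 ECKO and beta-catenin GOF lie below the lowest WT value of 761 CPM, and WT replicate 3 holds the lowest WT value of Cav1, Plvap, Mfsd2a, Cav2 and Cavin1.

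Of the 6 genes Cav1 alone passed the test, and it did so in Hdac2 ECKO, where it was 2.36-fold lower than in WT. Cav1 (ENSMUSG00000007655.16, chr6:17306335-17341452, plus strand, GRCm38) encodes caveolin-1, the protein without which endothelium forms no caveolae. In WT it stood at 1687, 1234 and 761 CPM in replicates 1, 2 and 3. In Hdac2 ECKO it stood at 426, 547 and 587 CPM, all below the lowest WT library. The log2 fold change was −1.24 (SE 0.30, edgeR p 8.09e-04, adjusted p 0.034), for means of 520 ± 84.0 CPM against 1227 ± 463 CPM (SD, n = 3 each). In this comparison 9.2% of all tested genes passed, 5.38% of tested genes as lower; the groups did not overlap in 37.8%, with 18.2% lower. In such bulk libraries fewer cells with the transcript and less transcript per cell cannot be told apart.

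The Cav1 call in Hdac2 ECKO held in all 11 other settings that kept every library, with log2 fold changes from −1.30 to −1.01. It held in 2 of the 6 fits without 1 library: without WT replicate 3 the value was −1.49 (edgeR adjusted p 0.017) and without Hdac2 ECKO replicate 2 it was −1.33 (adjusted p 0.023). It was lost without WT replicate 1 (−0.94, adjusted p 0.14), WT replicate 2 (−1.24, adjusted p 0.099), Hdac2 ECKO replicate 1 (−1.13, adjusted p 0.16) or Hdac2 ECKO replicate 3 (−1.35, adjusted p 0.13). In those 4 fits the count over all genes went from 1157 to 0, 0, 1 and 0, so nearly every call of the comparison was lost, while it was 1868 without WT replicate 3 and 2220 without Hdac2 ECKO replicate 2. Scaling by the library total alone moved the median of all genes in this comparison from 0.10 to 0.34, and Cav1 was then at −1.01; the split of calls moved from 480 higher and 677 lower to 1469 higher and 357 lower.

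In beta-catenin GOF, Cav1 stood at 449, 557 and 600 CPM, again below every WT library. The log2 fold change was −1.20 (SE 0.30, edgeR p 0.0011, adjusted p 0.42) and did not pass. It did pass under DESeq2 (adjusted p 0.022), with no filter (0.024) and with quality weights (0.030). Over all genes 38 of 12523, 157 of 20343 and 26 of 12577 passed under these settings, in the same order. In the reported edgeR fit of this comparison 0.0% of all tested genes passed, and the groups did not overlap in 12.7%, with 5.87% lower. In labelled Ezh2 ECKO, Cav1 stood at 702, 713 and 1042 CPM, which overlaps WT (log2 fold change −0.58, SE 0.30, edgeR adjusted p 0.23). By group means the order was WT at 1227, labelled Ezh2 ECKO at 819, beta-catenin GOF at 536 and Hdac2 ECKO at 520 CPM. Hdac2 ECKO and beta-catenin GOF stood 0.04 apart on the log2 scale, a sign that turned under scaling by total, under quality weights and with the length trend removed. Each lay below every library labelled Ezh2 ECKO, by −0.66 and −0.61, and neither difference passed (edgeR adjusted p 0.61 and 0.39). These comparisons against WT share the 3 WT libraries, so their values are not independent of each other.

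**Figure D2:**
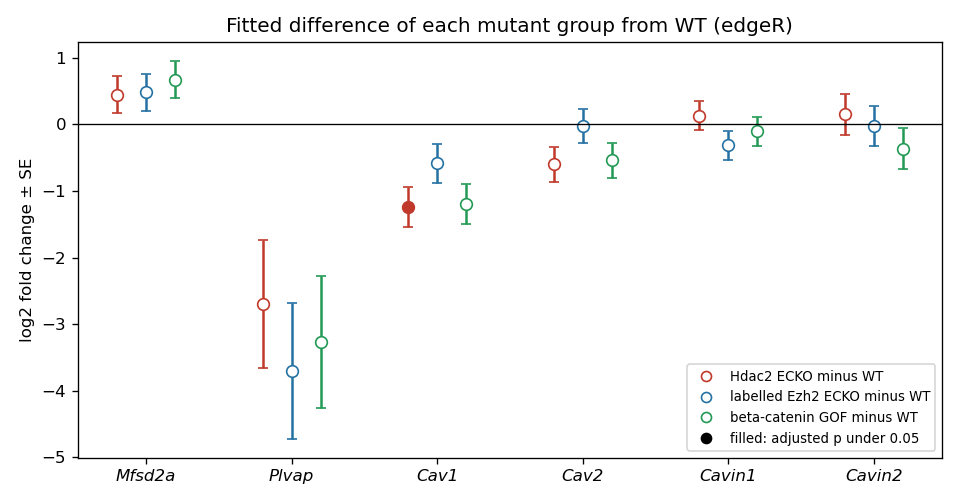
Fitted log2 fold change of each mutant group against WT for the 6 genes, with the standard error as bar; the filled point marks an adjusted p under 0.05. The 1 filled point is Cav1 in Hdac2 ECKO at −1.24, while the Plvap estimates lie between −3.70 and −2.69 with the widest errors.

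Markers of pericytes, the mural cells that wrap capillaries, moved opposite to Cav1 across the libraries. The 9 pericyte markers summed to 36.0 to 58.5 CPM in WT and 40.1 to 46.8 CPM in labelled Ezh2 ECKO. They summed to 84.2 to 166 CPM in Hdac2 ECKO and 83.2 to 165 CPM in beta-catenin GOF, the same groups in which Cav1 lay below all WT values. No pericyte marker was at 0 in a whole group. Across the 12 libraries log2 Cav1 and the log2 pericyte sum correlated with r = −0.87, and Cav2 with r = −0.68; the libraries share genotype groups and scaling, and no p is given. The 7 smooth muscle markers summed to 65.3 to 122 CPM in WT, with Cnn1 and Myocd at 0, 112 to 264 in Hdac2 ECKO, 34.9 to 54.9 in labelled Ezh2 ECKO, with 83.6 to 447 for beta-catenin GOF. The brain endothelial sum was 70570 to 72769 CPM in WT, 32299 to 45098 in Hdac2 ECKO, 40764 to 77132 in labelled Ezh2 ECKO and 69443 to 74023 in beta-catenin GOF. Bsg was the most abundant marker in this sum. The capillary, arterial and venous endothelial sums of Hdac2 ECKO overlapped WT. They were 3861 to 5116 CPM against 4706 to 5219, 818 to 1114 against 837 to 1549, and 439 to 808 against 442 to 573. The 9 microglia and leukocyte markers were low throughout, at 4.34 to 7.81 CPM in WT, 2.22 to 4.40 in Hdac2 ECKO, 4.02 to 9.21 in labelled Ezh2 ECKO and 2.39 to 3.80 in beta-catenin GOF, and correlated with Cav1 and with Cav2 at r = 0.74. Of these, Cd53 was at 0 in all 3 mutant groups, Tmem119 in Hdac2 ECKO and beta-catenin GOF, and Cx3cr1, Aif1 and Itgam in beta-catenin GOF. The part of these markers in the Cav1 difference was not tested.

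**Figure D3:**
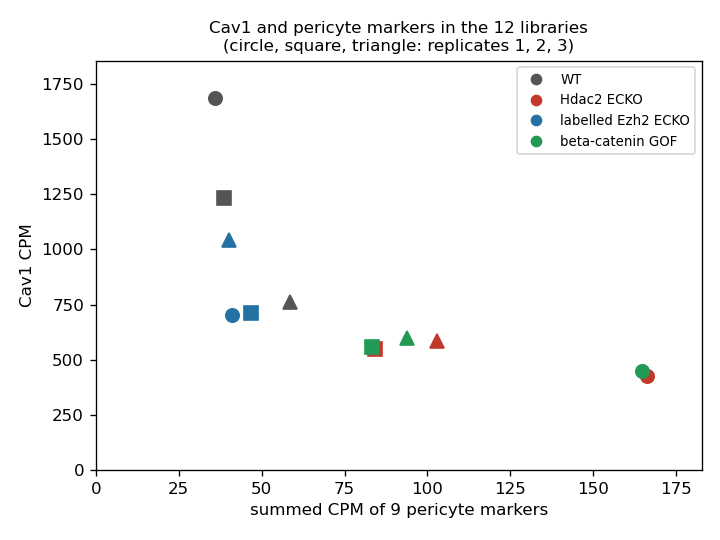
Cav1 CPM against the summed CPM of 9 pericyte markers in the 12 libraries, both on linear axes; colours are groups and symbols replicates. The 6 libraries of Hdac2 ECKO and beta-catenin GOF have pericyte sums of at least 83.2 CPM and Cav1 of at most 600 CPM, and the 3 WT libraries run from 1687 CPM of Cav1 at a sum of 36.0 to 761 CPM at 58.5.

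Cav2 encodes caveolin-2, which joins caveolin-1 in the coat and depends on it to reach the membrane. Its gene (ENSMUSG00000000058.6, chr6:17281185-17289115, plus strand, GRCm38) ends 17219 bases before Cav1 begins, and the spans of both overlap the antisense gene Gm15581. Whether their exons overlap was not examined. Reads from shared exons could not be told apart without strand. Cav2 stood at 1785, 1270 and 1260 CPM in WT and at 1033, 763 and 1054 CPM in Hdac2 ECKO. The Hdac2 ECKO libraries were all below WT, and the edgeR log2 difference was −0.60 (SE 0.26, p 0.037, adjusted p 0.13). It stood at 972, 1002 and 996 CPM in beta-catenin GOF, a group of narrow spread that also lay below WT (log2 fold change −0.54, SE 0.26, edgeR adjusted p 0.83). In labelled Ezh2 ECKO it stood at 1068, 1339 and 1833 CPM and overlapped WT (log2 fold change −0.03, edgeR adjusted p 0.96). No Cav2 difference passed, although under DESeq2 the Hdac2 ECKO value of −0.66 did.

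The balance of the caveolins was read within each library, where no scaling enters; this ratio was chosen after the values were seen. Cav1 over Cav2, both per kilobase, was 0.915, 0.940 and 0.585 in WT. It was 0.399, 0.693 and 0.539 in Hdac2 ECKO, 0.637, 0.516 and 0.550 in labelled Ezh2 ECKO. The beta-catenin GOF libraries had 0.448, 0.538 and 0.583. WT replicates 1 and 2 stood above all other libraries, and WT replicate 3 stood among the mutants.

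The cavins, which assemble on caveolin to shape the coat, did not pass in any comparison. Cavin1 (ENSMUSG00000004044.9, chr11:100956733-100970887, minus strand, GRCm38) is the cavin required for caveolae to form. It stood at 142, 128 and 112 CPM in WT. Mutant levels were 126, 149 and 144 in Hdac2 ECKO, 113, 86.9 and 108 in labelled Ezh2 ECKO. The beta-catenin GOF libraries had 112, 131 and 112 CPM. The lowest group was labelled Ezh2 ECKO and the highest Hdac2 ECKO, which did not overlap each other (log2 difference 0.45, SE 0.21, edgeR p 0.054, adjusted p 0.61). Against WT the log2 fold changes were 0.13 (SE 0.21) in Hdac2 ECKO, −0.32 (SE 0.21) in labelled Ezh2 ECKO, with −0.10 (SE 0.21) for beta-catenin GOF (edgeR adjusted p 0.69, 0.37 and 0.97).

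Cavin2 (ENSMUSG00000045954.7, chr1:51289126-51302960, plus strand, GRCm38) encodes a cavin of endothelial caveolae and overlaps the antisense gene 9330175M20Rik. It stood at 405, 269 and 374 CPM in WT. Mutant libraries stood at 459, 275 and 430 in Hdac2 ECKO, 491, 223 and 315 in labelled Ezh2 ECKO. The beta-catenin GOF libraries had 224, 288 and 303 CPM. Every mutant group overlapped WT, and labelled Ezh2 ECKO held both the highest and the lowest value. The log2 fold changes against WT were 0.15, −0.03 and −0.36 in the same order of mutants (edgeR adjusted p 0.76, 0.97 and 0.92).

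Mfsd2a (ENSMUSG00000028655.11, chr4:122946850-122961188, minus strand, GRCm38) had a higher mean in every mutant group than in WT, and none of these differences passed. It stood at 93.3, 83.0 and 65.3 CPM in WT and at 117, 120 and 99.7 CPM in labelled Ezh2 ECKO. All 3 of the latter lay above WT, by 0.48 on the log2 scale in the edgeR model (SE 0.28, adjusted p 0.29). In this comparison 1.03% of all tested genes passed, and 21.9% had groups that did not overlap, 11.0% with the mutant higher and 10.9% with it lower. In Hdac2 ECKO it stood at 80.9, 123 and 124 CPM, and in beta-catenin GOF at 80.8, 152 and 152 CPM. Replicate 1 of each of these groups lay within the WT range and the other replicates above it. The log2 fold changes were 0.44 (SE 0.28, edgeR adjusted p 0.27) in Hdac2 ECKO and 0.67 (SE 0.28, edgeR p 0.029, adjusted p 0.78) in beta-catenin GOF. With the trend on gene length removed, the Hdac2 ECKO value became 1.01 and passed (adjusted p 0.042). Erythrocyte transcripts had the strongest marker correlation with Mfsd2a, at r = −0.68 over the 12 libraries. The 5 markers summed to 36121 to 61357 CPM in WT, 400.4 to 21652 in Hdac2 ECKO, 2518 to 6662 in labelled Ezh2 ECKO and 509.6 to 35358 in beta-catenin GOF, none at 0 in a whole group. WT replicate 3 had the highest erythrocyte sum and the lowest Mfsd2a, and the part of these transcripts in the Mfsd2a values was not tested.

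Set against Cav1 in the same library, Mfsd2a separated every mutant library from WT. Mfsd2a alone overlapped WT in Hdac2 ECKO and beta-catenin GOF. The ratio of Mfsd2a to Cav1, both per kilobase, was 0.0847, 0.103 and 0.131 in WT. It was 0.291, 0.345 and 0.324 in Hdac2 ECKO, 0.256, 0.257 and 0.147 in labelled Ezh2 ECKO. The beta-catenin GOF libraries had 0.275, 0.417 and 0.387. All 9 mutant values lay above the highest WT value. The ratio was chosen after both genes had been seen, so it is given without a test. How many other genes would separate the groups when set against Cav1 was not counted. Cavin1 over Cav1 and Cavin2 over Cav1 lay above all WT libraries in Hdac2 ECKO and beta-catenin GOF. In labelled Ezh2 ECKO they overlapped WT, at 0.0992 to 0.154 against 0.0810 to 0.141 and 0.341 to 0.788 against 0.246 to 0.554.

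**Figure D4:**
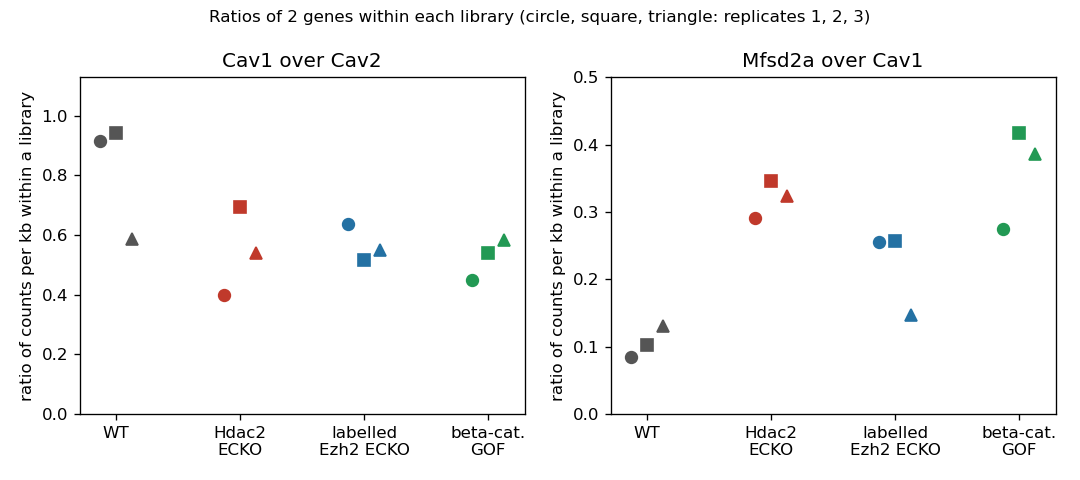
Ratios of Cav1 to Cav2 (left) and of Mfsd2a to Cav1 (right) within each library, both genes in counts per kilobase, on linear axes from 0; symbols are replicates. On the right the 3 WT libraries lie at 0.0847 to 0.131, below all 9 mutant libraries, of which the lowest is at 0.147.

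Plvap was the least abundant of the genes and had the largest estimated differences, none of which passed in edgeR. Plvap (ENSMUSG00000034845.6, chr8:71497765-71511752, minus strand, GRCm38) stood at 10.1, 16.8 and 1.25 CPM in WT, from 292, 532 and 35 counts. It stood at 0.757, 1.30 and 2.29 CPM in Hdac2 ECKO and at 0.778, 1.02 and 0.359 CPM in labelled Ezh2 ECKO. In beta-catenin GOF it stood at 0.955, 1.90 and 0.0581 CPM, the last from 2 counts and so under the floor of 3 counts, which is 0.0831 to 0.121 CPM. WT replicates 1 and 2 stood above all 9 mutant libraries, while WT replicate 3 lay within the range of Hdac2 ECKO and beta-catenin GOF.

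Against WT the Plvap log2 fold change was −2.69 (SE 0.96, edgeR adjusted p 0.076) in Hdac2 ECKO and −3.70 (SE 1.02, edgeR p 0.0023, adjusted p 0.071) in labelled Ezh2 ECKO, the group that did not overlap WT. In beta-catenin GOF it was −3.27 (edgeR p 0.0047, adjusted p 0.60). Without WT replicate 3 the first 2 values became −3.21 and −4.22 and passed (edgeR adjusted p 0.033 and 0.022). Without labelled Ezh2 ECKO replicate 2 the second was −4.04 and passed. The other fits without 1 library did not pass. Their edgeR adjusted p was 0.11 to 0.26 in Hdac2 ECKO and 0.17 to 0.23 in labelled Ezh2 ECKO. Without WT replicate 3 the count over all genes went from 1157 to 1868 in Hdac2 ECKO. In labelled Ezh2 ECKO it went from 129 to 1138 without WT replicate 3, and to 2328 without its own replicate 2. Plvap in Hdac2 ECKO and labelled Ezh2 ECKO also passed under DESeq2 (adjusted p 0.017 and 0.0029), with no filter and with quality weights. In Hdac2 ECKO it passed with only the groups compared as well, where 1446 of 12596 genes did. In beta-catenin GOF it passed with no filter, where 157 of 20343 genes did. The Plvap span overlaps Gtpbp3, on the opposite strand, by 1819 bases and 0 exonic bases, and Gtpbp3 stood at 1.77 to 4.43 CPM. Choroid plexus markers, of a tissue whose vessels are fenestrated, summed to 0.925 to 2.09 CPM in WT. They summed to 2.27 to 111 CPM in Hdac2 ECKO, 23.7 to 182 in labelled Ezh2 ECKO and 0.448 to 33.6 in beta-catenin GOF. Otx2 was at 0 in labelled Ezh2 ECKO and beta-catenin GOF, and Folr1 in beta-catenin GOF. Their r with Plvap over the 12 libraries was −0.30. The strongest marker correlation of Plvap was with oligodendrocyte markers, at r = −0.53. The part of these markers in the Plvap values was not tested.

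**Figure D5:**
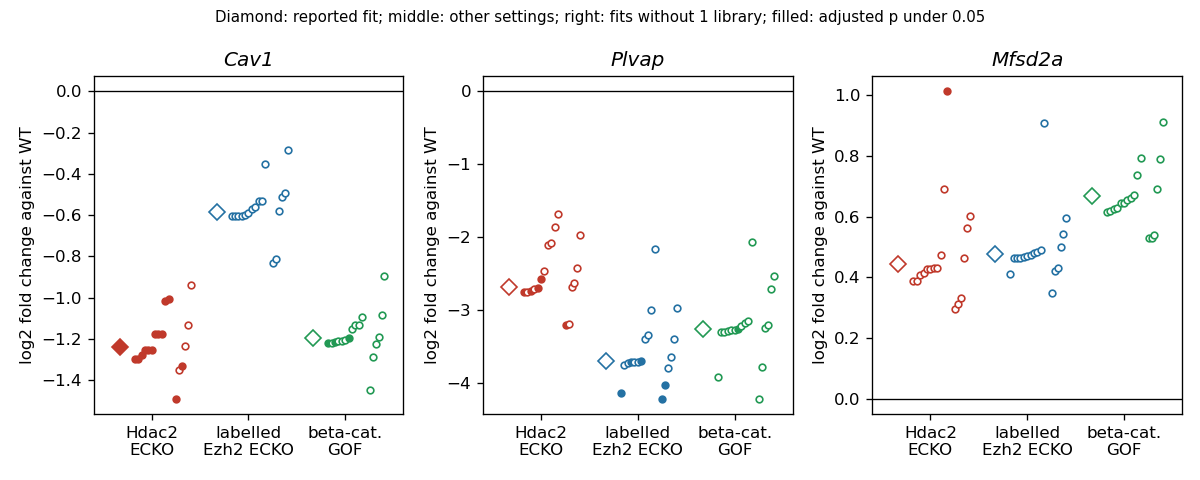
Log2 fold change against WT of Cav1, Plvap and Mfsd2a in the reported model (diamond), in the 11 other settings (middle points) and in the 6 fits without 1 library (right points); filled symbols passed the adjusted p threshold of 0.05. Cav1 in Hdac2 ECKO is filled in all other settings and in 2 of 6 fits without 1 library, and every value of Cav1 and Plvap is negative and every value of Mfsd2a positive.

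Counted over the set, edgeR passed 1 of the 6 genes in Hdac2 ECKO, against 9.2% of all genes, and 0 in each other comparison. At an unadjusted p under 0.05 there were 3 of 6 in Hdac2 ECKO, 1 in labelled Ezh2 ECKO, with 3 for beta-catenin GOF against WT, where 33.1%, 24.7% and 6.07% of all genes stood. DESeq2 called Cav1, Cav2 and Plvap in Hdac2 ECKO, Plvap in labelled Ezh2 ECKO and Cav1 in beta-catenin GOF, beside 24.6%, 10.4% and 0.303% of the genes it gave an adjusted p. The median log2 fold change of the 6 was −0.23, −0.17 and −0.45, beside 0.10, 0.05 and 0.01 over all tested genes. Between mutants none passed, the smallest edgeR adjusted p was 0.33, and DESeq2 called 0. At an unadjusted p under 0.05 there were 2 of 6 between Hdac2 ECKO and labelled Ezh2 ECKO and 0 in the other mutant comparisons. Over all genes that share was 8.19% between Hdac2 ECKO and labelled Ezh2 ECKO, 21.1% between beta-catenin GOF and Hdac2 ECKO and 13.2% between beta-catenin GOF and labelled Ezh2 ECKO, and DESeq2 called 0.783%, 9.6% and 1.15%. Hdac2 ECKO against labelled Ezh2 ECKO gave 0.0239% of all genes past the threshold and 13.2% without overlap. Cav1 and Cav2 were among the 5.42% lower and Cavin1 among the 7.77% higher in Hdac2 ECKO. Beta-catenin GOF against labelled Ezh2 ECKO gave 0.0636% and 16.7%, with Cav1 and Cav2 among the 8.67% lower in beta-catenin GOF. Beta-catenin GOF against Hdac2 ECKO gave 0.0716% and 32.0%, and all 6 genes overlapped there.

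The wider machinery of endocytosis and transcytosis was read from 8 lists of 111 further genes, of which 108 were tested. In Hdac2 ECKO 4 rose and 9 fell, 12.0% of the lists against 9.2% of all genes, with a median log2 fold change of 0.24 against 0.10. In labelled Ezh2 ECKO 0 rose and 2 fell, 1.85% against 1.03%. For beta-catenin GOF 0 passed in edgeR and in DESeq2, and 6 of 108 had an unadjusted p under 0.05, beside 6.07% of all genes. The Hdac2 ECKO count was 0 in each fit without WT replicate 1, WT replicate 2, Hdac2 ECKO replicate 1 or Hdac2 ECKO replicate 3, 23 without WT replicate 3 and 27 without Hdac2 ECKO replicate 2. The count over all genes moved in the same way, as given with Cav1.

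None of the 10 tested genes of the caveolar coat and neck list passed in any comparison against WT. Of the 13 genes for vesicle scission, docking and fusion, Itsn2, an endocytic scaffold, rose in Hdac2 ECKO from 66.4 ± 0.793 to 129 ± 27.3 CPM (SD, n = 3 each; log2 fold change 0.96, SE 0.24, edgeR adjusted p 0.035). Napa, the SNAP adaptor that recycles SNARE complexes, fell from 166 ± 47.8 to 58.4 ± 35.1 CPM (−1.51). Of the 14 clathrin genes, the cargo adaptor Dab2 rose by 1.03 on the log2 scale, while Ap2m1, the cargo-binding subunit of the AP-2 adaptor, and the light chain Cltb had log2 fold changes of −1.81 and −1.35. Cltb went from 165 ± 52.3 to 64.4 ± 28.9 CPM.

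Of the 13 cargo receptors, Insr, the insulin receptor, rose from 72.4 ± 5.68 to 158 ± 42.9 CPM in Hdac2 ECKO (1.13), and Fcgrt, the neonatal Fc receptor that recycles IgG and albumin, fell from 290 ± 115 to 128 ± 40.4 CPM (−1.18). Of the 11 endosomal GTPases, 3 fell in Hdac2 ECKO: the recycling GTPase Rab11b (−1.51), the early endosomal Rab5c (−1.35) and the late endosomal Rab7 (−0.95). Rab11b also fell in labelled Ezh2 ECKO, from 225 ± 67.1 to 92.3 ± 12.5 CPM (−1.29, SE 0.29, edgeR adjusted p 0.048). Rab13 fell there from 51.2 ± 8.93 to 19.5 ± 6.33 CPM (−1.39, edgeR adjusted p 0.045). Both of these calls held in 2 of the 6 fits without 1 library. None of the 20 genes for lysophospholipid and fatty acid handling passed.

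Of the 13 tested genes of fenestrated or peripheral endothelium, 2 fell in Hdac2 ECKO. Ramp3, an adrenomedullin receptor subunit, fell from 17.2 ± 4.84 to 2.29 ± 0.237 CPM (−2.91, SE 0.70, edgeR adjusted p 0.034). Cd34, a sialomucin of vascular endothelium, fell from 969 ± 442 to 402 ± 46.7 CPM (−1.27, SE 0.32, edgeR adjusted p 0.036). The list median was 0.35, opposite in sign to these genes. Of the 19 listed regulators of caveolar transcytosis, Plvap or Mfsd2a, Tgfbr1, the type I TGF-beta receptor, rose from 24.6 ± 6.18 to 62.8 ± 27.2 CPM (1.35, edgeR adjusted p 0.047). With the trend on gene length removed, Ap2m1, Cltb, Rab11b, Ramp3 and Cd34 still passed in Hdac2 ECKO. Of the calls lost, Napa (−1.39) and Tgfbr1 (1.05) kept most of their size, while Dab2 (0.64), Rab5c (−0.80), Fcgrt (−0.60), Rab7 (−0.45), Insr (0.39) and Itsn2 (0.23) were smaller by over 1.5 times.

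Each member was compared with 7578 genes, which were those with a mean of at least 10 CPM and the other members. The genes whose profiles over the 12 libraries were most like each member were found among these by Pearson's r of log2 values, as a description. For Cav1 they were St6galnac2, Snx6 and Taf9b, each at r = 0.90, and for Cav2 Clk4 (0.93), Agmo (0.90) and Lypla1 (0.89). For Plvap they were Nub1 (0.92), Irf1 (0.91) and Alpl (0.91), and for Mfsd2a Fam120b (0.82), Plod3 (0.81) and Knop1 (0.81). Cavin1 was nearest to Gon4l (0.93), Brf1 (0.88) and Ube2h (0.88), and Cavin2 to Tgfbr3 (0.90), Crebl2 (0.89) and Nr2f2 (0.87). None of these nearest genes was another of the 6.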

How the data were processed

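Each gene has a single value for every library in the deposited table, whose title calls the values normalized. The values were whole numbers with totals that differed between libraries, and 79.5% to 84.0% of values from 10 to 50 were even, against 59.4% to 67.1% from 300 to 1000, the pattern left by counting the mates of a read pair separately. They were therefore treated as raw counts, as deposited by the authors. The submitters' processing notes name FastQC, cutadapt, STAR, featureCounts, DESeq2 and mm10; versions, settings and the use of strand are not given in the sources used here. The kit was SMART-Seq v4 PLUS with paired reads on a NovaSeq X Plus, per the labels' protocols. Gene lengths came from the deposited table, and 99.1% of its genes stood at GENCODE M21 positions (GRCm38). No sample columns were set aside.

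Differences were tested with edgeR 4.0.16 (R 4.3.3; glmQLFTest after TMM scaling) in 1 model over 12 libraries with a term per group. A filter at a mean of 10 counts left 12577 genes. Benjamini-Hochberg adjustment was made inside each of the 6 comparisons with a threshold of 0.05, and standard errors were derived from F. The method was tested on simulated data. The 6 genes and all lists were chosen with earlier results of these data known. Named list genes are the up to 3 with the smallest p per list and direction past the threshold.

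A floor is 3 counts of a library's total, and floors cover counting error only. Counts of replicates differed by far more than sampling noise (chi-square per degree of freedom at least 62.6). Replicate numbers come from the sample titles. Deviations from group means of same-numbered libraries correlated with r of 0.13 to 0.43 between Hdac2 ECKO and labelled Ezh2 ECKO. Differently numbered libraries of these groups had r from −0.30 to 0.21, which overlaps that range, so whether the numbers pair libraries is not settled. Between WT and Hdac2 ECKO, same-numbered libraries had r as low as −0.19. Alternatives were limma (3.58.1) on log2(CPM + 1) and log2(CPM + 0.1), DESeq2 (1.42.0), median-ratio scaling, scaling by library total, no filter, a filter at a mean of 50 counts, only the 2 groups compared, a replicate block, sample quality weights, removal of a trend on gene length, and leaving out each library.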

Additional observations from a re-analysis of the deposited data

How the results depend on the processing

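Of 612 alternative values for the 6 genes in 6 comparisons, 557 kept their direction and side of the threshold, and of the 35 that turned none was a called value. The reported fit called only Cav1 in Hdac2 ECKO against WT, so nearly all of the 557 were uncalled values that stayed uncalled. The 4 values that lost a call were all of this Cav1 difference. The 1 gene past the threshold in Hdac2 ECKO against WT became 3 under DESeq2 and 2 with no filter, with only the 2 groups, with quality weights or with the length trend removed, and 0 to 2 without 1 library. In labelled Ezh2 ECKO against WT the 0 became 1 under DESeq2, with no filter and with quality weights, and 0 to 1 without 1 library. In beta-catenin GOF against WT the 0 became 1 under DESeq2 and with quality weights and 2 with no filter.

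Scaling by total, quality weights and removal of the length trend turned Cav2 (0.0015, 0.0048 and 0.21) and Cavin2 (0.023, 0.28 and 0.30) in labelled Ezh2 ECKO against WT, and Mfsd2a in Hdac2 ECKO against labelled Ezh2 ECKO (0.21, 0.062 and 0.11). For beta-catenin GOF against Hdac2 ECKO they turned Cav1 (−0.15, −0.038 and −0.076) and Cav2 (−0.12, −0.023 and −0.095). Removing the length trend turned Mfsd2a in beta-catenin GOF against Hdac2 ECKO (−0.22) and against labelled Ezh2 ECKO (−0.11), and limma on log2(CPM + 0.1) turned Plvap in the latter (−0.15). Without 1 library, Cav2 and Cavin2 in labelled Ezh2 ECKO against WT ranged from −0.27 to 0.16 and from −0.40 to 0.21, and Cavin2 in Hdac2 ECKO against WT from −0.0092 to 0.30. Mfsd2a and Cavin2 in Hdac2 ECKO against labelled Ezh2 ECKO ranged from −0.17 to 0.14 and from −0.056 to 0.51. Cav1 and Cav2 in beta-catenin GOF against Hdac2 ECKO ranged from −0.073 to 0.16 and from −0.034 to 0.15, and Plvap and Cavin2 in beta-catenin GOF against labelled Ezh2 ECKO from −0.52 to 0.99 and from −0.57 to 0.026. The cause of these changes was not tested.

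For the pathway lists, alternatives were chosen after seeing the data. The 13 genes in Hdac2 ECKO became 20 under limma with either pseudocount and with scaling by total, 30 under DESeq2, 24 with no filter, 53 with quality weights, 6 with the length trend removed and 0 to 27 without 1 library. All genes moved alike there, from 1157 to 1712 and 1646 (limma), 1826, 2553, 2279, 5374, 604 and 0 to 2220 in the same order. The 2 in labelled Ezh2 ECKO became 5 under limma on log2(CPM + 1), 17 under DESeq2, 14 with no filter, 40 with quality weights, 1 with median-ratio scaling or the length trend removed, 0 with scaling by total or only the 2 groups, and 0 to 33 without 1 library, while the 129 of all genes became 348, 1280, 1367, 3743, 76 or 103, 30 or 17, and 2 to 2328. With no filter, 1 gene passed in beta-catenin GOF, against 0, while the count over all genes went from 0 to 157. With a replicate block, the list counts were 22 and 6. The count over all genes then went from 1157 to 1832 in Hdac2 ECKO against WT and from 129 to 536 in labelled Ezh2 ECKO against WT. No call of the 6 genes changed, Hdac2 ECKO against labelled Ezh2 ECKO included. Plvap, at 2 to 72 counts in mutant libraries, had the fewest counts of the 6 genes. The part of depth in its spread was not tested.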

Other observations

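The 6 genes form 15 pairs, whose correlations over the 12 libraries on log2(CPM + 1) are given as descriptions, since the libraries share groups and scaling. Cav1 and Cav2, neighbours on chromosome 6, had the highest at r = 0.81, and 0.59 for deviations from the group means. Plvap and Cav1 had r = 0.67, and 0.52 within groups. Cav1 and Cavin1, partners in the coat, had r = 0.06 over all libraries and 0.67 within groups. Mfsd2a and Cav1 had r = −0.21 over all libraries and 0.58 within groups.

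WT replicate 3 had the lowest WT value of 5 of the 6 genes, Cavin2 being the exception. It also had the highest WT erythrocyte sum, 61357 CPM against 36121 and 38241 CPM, and pericyte sum, 58.5 against 36.0 and 38.8 CPM. Its oligodendrocyte sum was 66.6 CPM, against at most 3.40 CPM in the other WT libraries. Arterial endothelial markers summed to 1549 against 837 and 839 CPM, and platelet markers to 39.2 against 15.4 and 16.3 CPM. Capillary endothelial, venous endothelial, fibroblast, leukocyte and choroid plexus sums were the lowest of WT there. The part of these markers in its values was not tested.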
